A study of Mus musculus with 3 samples.

Results

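Head-to-head overlapping gene pairs are pairs of genes on opposite strands whose first parts cover each other: the minus-strand gene starts at the lower coordinate, the plus-strand gene ends at the higher one, and their beginnings share exon sequence. Here a pair was taken when the exons of 2 autosomal genes of any biotype shared at least 1 base and neither gene lay inside the other. The rule used only the coordinates and strands in the deposited files, and no count. It gave 1470 pairs of the 4498 autosomal opposite-strand pairs with overlapping exons, and these held 2891 of the 50600 genes. Of the pairs, 775 joined a protein-coding gene with a long noncoding RNA (lncRNA) gene, 448 joined 2 protein-coding genes, 50 joined 2 lncRNA genes and 197 had another composition. The member genes were 1787 protein-coding genes, 892 lncRNA genes, 125 genes of the class TEC (models that await experimental support), 63 pseudogenes, 17 of other biotypes and 7 with no matched name.

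Many mammalian promoters start transcription in both directions. Where the 2 starts lie back to back the transcripts do not meet, but where each start lies beyond the other the first exons of both transcripts are read from the same DNA, on opposite strands. Such pairs include housekeeping gene pairs with CpG-rich promoters, and antisense lncRNAs that begin inside the first exon or intron of a coding gene. RNA from the shared stretch can be assigned to a gene only by its strand.

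The libraries came from T-helper 1 (Th1) cells, the interferon-gamma producing branch of CD4 T cells. They were primary cells of C57BL/6NJ mice, and the 3 libraries, replicates 1, 2 and 3, formed 1 group with no treatment named. The labels give each library a biosample of its own and all of them the same donor entry, and give no age, so that p-values measure only the spread between these samples, which may be technical. A time of 2 hours stands only in the file headers. The comparisons are therefore between the partners of a pair within the libraries, and between the libraries.

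Total counts were 4442901, 3123869 and 2950658 in replicates 1, 2 and 3, so a gene with 0 counts may lie at up to 0.675, 0.96 and 1.02 CPM, the count scaled to the library total (a limit of 3 counts, for counting error only). All 9 T cell markers had counts in every library, with sums of 6164 to 15587. Of 6 Th1 markers, 5 had counts in every library, with sums of 195 to 354, but the defining genes Tbx21 (19, 7 and 11 counts) and Ifng (1, 2 and 0 counts) were low. The 2 NK markers were at 0, and so were Cd79b and Ms4a1 of B cells, Lyz2 and S100a9 of myeloid cells, and both haemoglobin genes. The B cell list summed to 83 to 133 counts, all from Cd79a, and the myeloid list to 1199 to 1826, nearly all from Csf1r, a gene that opposes another on the other strand. The CD8 markers summed to 10 to 36 counts and the erythroid list to 11 to 27, all of the latter from Alas2, which is also opposed. Cd3e of the T cell markers and Il12rb2 of the Th1 markers (79, 117 and 62 counts in replicates 1, 2 and 3) were opposed as well. The part of other cell types in the pair ratios was not tested.

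The counting used strand setting 1, under which the first read of a pair must match the strand of the gene it is counted for. Whether this setting matches the strand of the library kit is not given in the sources used here and was not tested. If it did not match, a count listed for a gene would stand for RNA of the opposite strand at its exons. The values below are therefore the counts listed for each gene. Values that bear on the strand are given beside the results: the level of genes with no opposite partner, and the other genes that a partner also opposes.

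The following promoter windows carry the pairs on which the text turns. H2-Q4 and Gm26885 belong to lncRNA and coding pairs of high count, Mettl23 and Smg6 to coding pairs of high count with a large difference, and Setd7 and Ears2 to pairs whose partners had nearly equal counts per base. Each window runs from 250 bases before the RefSeq start of the named gene to 50 after it. It is read 5′ to 3′ on the strand of that gene (GRCm38.p6). Except at H2-Q4, the RefSeq start differs from the start in the deposited files, by which the pairs were taken. In the windows of Mettl23 and Ears2 all shared bases lie upstream of the RefSeq start. Capitals mark bases that lie in exons of both partners.
H2-Q4: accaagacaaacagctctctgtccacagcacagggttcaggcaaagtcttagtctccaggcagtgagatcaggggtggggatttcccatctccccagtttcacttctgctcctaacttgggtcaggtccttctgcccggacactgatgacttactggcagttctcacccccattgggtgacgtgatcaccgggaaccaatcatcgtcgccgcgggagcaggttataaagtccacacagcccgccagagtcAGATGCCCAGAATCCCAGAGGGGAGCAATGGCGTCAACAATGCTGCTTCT
Gm26885: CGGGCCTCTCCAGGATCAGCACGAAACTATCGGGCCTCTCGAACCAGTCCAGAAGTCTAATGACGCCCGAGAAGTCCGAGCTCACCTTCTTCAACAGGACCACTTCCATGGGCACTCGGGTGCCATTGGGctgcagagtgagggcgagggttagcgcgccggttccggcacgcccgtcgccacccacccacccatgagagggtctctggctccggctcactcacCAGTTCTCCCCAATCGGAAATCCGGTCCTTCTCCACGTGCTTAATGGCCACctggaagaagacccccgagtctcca
Mettl23: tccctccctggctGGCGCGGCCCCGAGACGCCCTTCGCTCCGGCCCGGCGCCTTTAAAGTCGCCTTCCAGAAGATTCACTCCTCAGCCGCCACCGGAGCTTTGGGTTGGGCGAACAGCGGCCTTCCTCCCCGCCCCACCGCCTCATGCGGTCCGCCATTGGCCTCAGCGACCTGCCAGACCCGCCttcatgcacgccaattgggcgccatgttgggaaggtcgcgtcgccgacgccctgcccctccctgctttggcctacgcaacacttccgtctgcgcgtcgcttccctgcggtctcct
Smg6: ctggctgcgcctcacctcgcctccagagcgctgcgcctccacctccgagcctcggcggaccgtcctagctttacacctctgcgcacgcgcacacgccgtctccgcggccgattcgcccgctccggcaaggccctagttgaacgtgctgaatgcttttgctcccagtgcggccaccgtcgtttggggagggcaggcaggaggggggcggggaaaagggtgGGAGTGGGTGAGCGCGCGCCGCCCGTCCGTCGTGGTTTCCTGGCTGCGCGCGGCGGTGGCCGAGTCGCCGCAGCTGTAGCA
Setd7: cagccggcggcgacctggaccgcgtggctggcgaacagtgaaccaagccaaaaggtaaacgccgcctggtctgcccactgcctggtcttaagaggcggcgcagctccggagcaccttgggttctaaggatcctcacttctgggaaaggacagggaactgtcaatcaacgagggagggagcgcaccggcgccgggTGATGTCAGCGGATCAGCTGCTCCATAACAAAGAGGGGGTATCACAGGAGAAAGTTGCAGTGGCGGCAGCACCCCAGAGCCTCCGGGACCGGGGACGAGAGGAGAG
Ears2: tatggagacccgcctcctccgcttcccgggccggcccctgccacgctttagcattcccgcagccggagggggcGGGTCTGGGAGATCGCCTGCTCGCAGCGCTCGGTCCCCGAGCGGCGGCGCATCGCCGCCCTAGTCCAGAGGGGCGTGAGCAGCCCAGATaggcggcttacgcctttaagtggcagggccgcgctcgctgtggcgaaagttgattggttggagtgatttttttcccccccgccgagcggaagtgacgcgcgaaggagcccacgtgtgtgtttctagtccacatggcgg

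The window of H2-Q4 (chr17:35379367-35379666, plus strand) held 50 shared bases, all of them downstream of the H2-Q4 start, and contained TATAAA and CCAAT. In the window of Gm26885 (chr17:29491495-29491794, minus strand), 181 bases lay in exons of both Gm26885 and Pim1, in more than a single block. The window of Mettl23 (chr11:116843265-116843564, plus strand) held 172 bases shared with Jmjd6, and that of Smg6 (chr11:74925604-74925903, plus strand) held 81 shared with Srr. The Setd7 window (chr3:51560774-51561073, minus strand) held 106 bases shared with 5031434O11Rik, and the Ears2 window (chr7:122067037-122067336, minus strand) held 89 shared with Ubfd1. The CpG ratio, observed CpG over the number given by the C and G content, was 0.39 at H2-Q4, 0.75 at Gm26885, 0.72 at Setd7, 0.97 at Mettl23, 1.01 at Smg6 and 0.98 at Ears2. The H2-Q4 window thus had a TATA sequence and few CpG, while the 3 windows of coding pairs had CpG near the level given by their base content.

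The shared stretches were short. The exon overlap had a median of 195 bases, with quartiles of 102 and 365 and extremes of 1 and 6222, and was a single block in 1183 pairs. The gene spans overlapped by a median of 577 bases. In mixed pairs, those of a lncRNA and a coding gene, the overlap took a median of 13.8% of the lncRNA's exon bases and 4.64% of the coding gene's. Of the 1470 pairs, 909 had no further exon overlap of either gene with another gene of the other strand. In the other pairs a partner also opposed a further gene, and this held for 30 of the 47 pairs named below. That gene is given for part of them.

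Of all counts, member genes held 15.8% in replicate 1, 18.9% in replicate 2 and 18.4% in replicate 3, on average 17.7% ± 1.66 (SD, n = 3; Wilson 95% intervals within 0.044 percentage points on either side). Coding members held 10.3% ± 0.13 and lncRNA members 6.20% ± 1.43. Within the mixed pairs, the coding genes held 2.92%, 2.44% and 2.56% of counts and the lncRNA genes 4.39%, 6.98% and 6.37%. The lncRNA genes of mixed pairs thus held more counts than their coding partners in every library, with the smallest gap in replicate 1.

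Levels per gene differed with the neighbourhood of the gene. Coding members had a median of 2.47 ± 0.26 CPM per kb of exon (SD, n = 3), and 76.1% of them had a count. Coding genes whose head-to-head neighbour began within 1000 bases without overlap, and which no gene opposed, had a median of 1.82 ± 0.43, and 78.3% had a count. Of the 12001 coding genes with no gene on the other strand, 43.8% had a count, and their median was 0 in every library. lncRNA members had a median of 0.343 ± 0.10, and 55.1% had a count. Of lncRNA genes in head-to-head neighbours without overlap 28.2% had a count, and of those with no gene on the other strand 9.59%. The same order, members above genes with no gene on the other strand, was therefore seen for both biotypes. Coding neighbours without overlap had a lower median than coding members but a slightly higher share with a count.

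Partners mostly differed. A pair entered the test with a summed count of at least 30, which 963 pairs reached. Of the 507 others, 287 had no count at all. The fitted value is the log2 ratio of counts per exon base between partners (edgeR quasi-likelihood test with Benjamini-Hochberg adjustment at 0.05, over 4134 pairs of every arrangement). Partners differed in 785 of 963 pairs, or 81.5%, against 82.8% of all pairs tested. The plus-strand gene was higher in 392 and the minus-strand gene in 393, and 178 pairs were not called. The share called was thus close to that of the whole table, with no lean to a strand. Of the tested pairs, 77 had a partner with no count.

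In mixed pairs the listed counts were more often higher for the lncRNA. Of 447 mixed pairs tested, the lncRNA was higher in 279, the coding gene was higher in 101, and 67 were not called. That makes 62.4% with the lncRNA higher, against 62.2% over mixed pairs of every arrangement, and 22.6% with the coding gene higher, against 27.0%. These whole-table shares include neighbours without overlap. Over overlapping mixed pairs alone, the lncRNA was higher in 74.7% and the coding gene in 14.6%, so head-to-head pairs lay below that lncRNA share. The median fitted ratio was 3.96-fold towards the lncRNA, or 1.98 on the log2 scale, and 1.94 with partners at 0 set to their bound of 3 counts. The median ratio per library was 1.20 (replicate 1), 2.69 (replicate 2) and 2.24 (replicate 3) on the log2 scale, on average 2.04 ± 0.76 (SD, n = 3, exact two-sided sign-flip test p = 0.25, the smallest that 3 libraries allow). The lncRNA was higher in 66.4%, 74.0% and 71.4% of these pairs in replicates 1, 2 and 3. The lncRNA was more than 16-fold higher in 104 pairs and the coding gene in 57. Without the correction for exon length the median per library was 0.58, and the lncRNA was called higher in 197 pairs and the coding gene in 151. Another 328 mixed pairs were not tested for lack of counts.

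The arrangement of the partners went with the direction of the ratio. Head-to-head neighbours whose starts lay at most 1000 bases apart with no overlap had the coding gene higher in 266 of 393 mixed pairs and the lncRNA in 84, with a median log2 ratio per library of −3.03 ± 0.46 (SD, n = 3). Overlapping head-to-head pairs lay above them by 4.73, 5.32 and 5.16 on the log2 scale in the 3 libraries, on average 5.07 ± 0.31 (n = 3, exact sign-flip p = 0.25). They lay below tail-to-tail pairs, whose ends overlap, with a difference of −1.92 ± 0.33, and below pairs with a gene inside the other, with a difference of −1.80 ± 0.14 (both exact p = 0.25). All 3 differences kept their sign in each library, which is the most this number of libraries can show. Among the neighbours without overlap, the lncRNA was called higher in 11 of 197 pairs in which no gene opposed either partner, and in 73 of 196 in which a gene opposed at least 1 partner, with medians of −5.30 and −1.39.

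**Figure D1:**
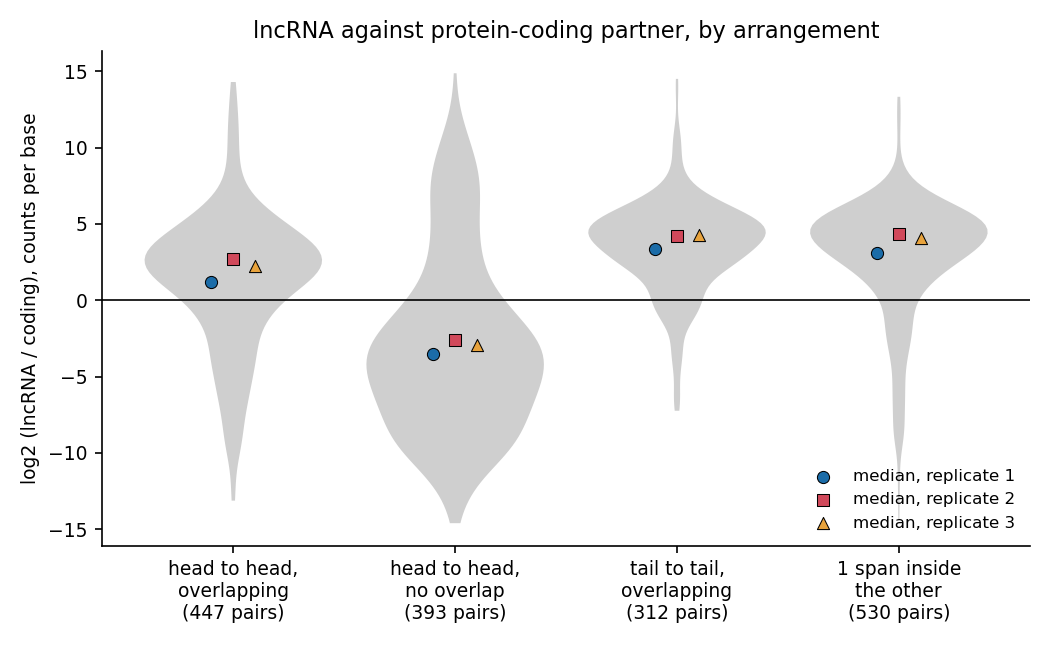
Log2 ratio of counts per base, lncRNA over coding partner, in 4 arrangements of mixed pairs. Grey shapes give the distribution of fitted ratios over pairs, and the coloured points give the median in each library. All 3 head-to-head overlapping medians lie above 0 (1.20 to 2.69), and all 3 medians of neighbours without overlap lie below 0 (−3.53 to −2.63).

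Within the head-to-head pairs, the ratio differed with the length of the overlap. Mixed pairs sharing 1 to 99 exon bases had the lncRNA higher in 40 of 104, the coding gene higher in 41 and a median log2 ratio of −0.43. With 100 to 299 shared bases the lncRNA was higher in 127 of 198 and the coding gene in 39, with a median of 1.89. With 300 or more the lncRNA was higher in 112 of 145 and the coding gene in 21, with a median of 2.93. Sorted by the share of the lncRNA's exon bases in the overlap, the medians were 1.05 below 10% (193 pairs), 2.47 from 10% to 30% (171 pairs) and 3.32 at 30% or more (83 pairs). The exon length of the lncRNA enters both that share and the ratio per base, so they are not independent. All of these values are descriptions over pairs, which share libraries, and no test was made between the bins.

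**Figure D2:**
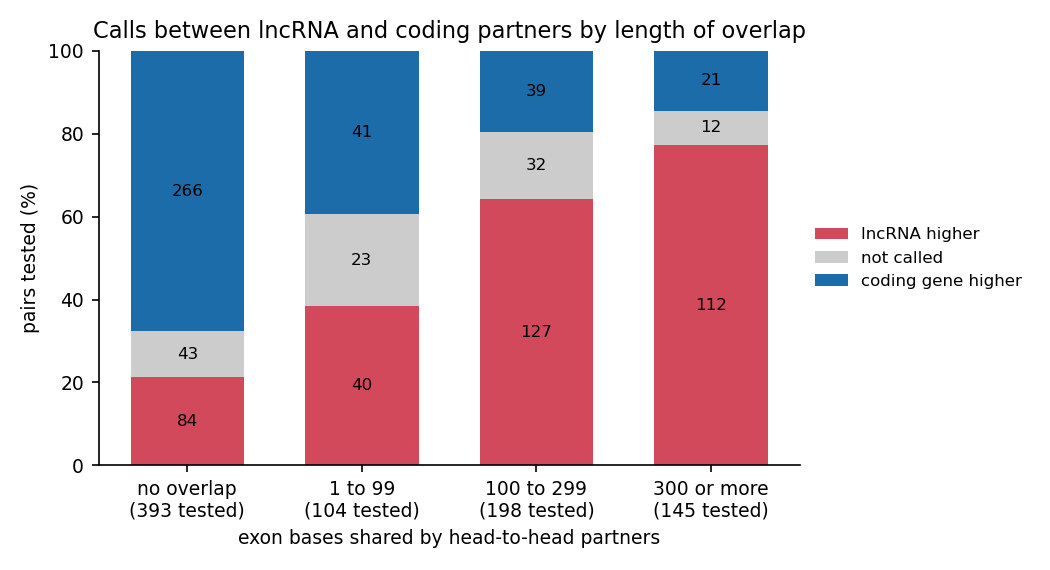
Share of tested mixed pairs by call, for neighbours without overlap and for 3 lengths of exon overlap. Bars add to 100%, and the numbers inside are pairs. The lncRNA was called higher in 84 of 393 pairs without overlap and in 112 of 145 pairs sharing 300 or more bases.

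The lncRNA led under each annotated kind of lncRNA. Genes of biotype antisense were higher than their coding partner in 184 of 287 pairs and lower in 63, with a median log2 ratio of 2.33. Those of biotype processed_transcript were higher in 50 of 85 (median 1.56), lincRNA in 27 of 46 (median 1.64) and bidirectional_promoter_lncRNA in 18 of 28 (median 1.84). Single-exon lncRNAs had a median of 2.25 over 75 pairs and those of more exons 1.93 over 372. In 249 pairs with no further opposed gene the median was 1.82, with the lncRNA higher in 151 and the coding gene in 54. In the 198 others it was 2.56, with 128 and 47. The excess of the lncRNA was thus present in every one of these subsets. The lncRNA had the larger overlapped share in 380 pairs, with a median of 1.91, and the coding gene in 67, with a median of 2.64. Both partners hold the same shared bases, so the larger share belongs to the gene with fewer exon bases.

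Other noncoding classes opposite a coding gene leaned the same way. TEC genes were higher in 46 of 66 pairs and lower in 9, with a median log2 ratio of 2.14. That is 69.7%, against 52.5% of such pairs in the whole table, which includes neighbours without overlap. Pseudogenes were higher in 12 of 18 and lower in 4 (66.7%, against 45.9%), with a median of 1.84. The partner with the larger share of its exon bases in the overlap is always the one with fewer exon bases. Counts per base divide by that same number. Over all compositions, that partner was called higher in 239 mixed, 173 coding, 65 other and 8 lncRNA pairs. It was called lower in 141, 126, 28 and 5. Per library it had the higher count per base in 57.4%, 61.8% and 60.2% of pairs, a mean of 59.8% ± 2.21 (SD, n = 3). It was called higher in 485 of 963 pairs, or 50.4%, against 56.5% of overlapping pairs of every arrangement. With no length correction the mean share per library was 45.0%, so the direction of that lean rests on the length correction.

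Among the mixed pairs of highest count, the noncoding gene led in all 4. H2-Q4 (ENSMUSG00000035929, mm10 chromosome 17, 35379617 to 35385290, plus strand) is a class I histocompatibility gene. Its counts were 2576, 1164 and 1509 in replicates 1, 2 and 3, the order used for all counts that follow. The antisense gene Gm11131 (35377021 to 35380292) had 13748, 15360 and 12928. The groups did not overlap, and Gm11131 was higher by 2.81 ± 0.42 on the log2 scale of counts per base (edgeR estimate ± SE, adjusted p = 6.14e-11). The pair shared 496 exon bases, which begin at the H2-Q4 start seen in the printed window. H2-Q4 belongs to a family of near-identical genes, so its count is uncertain.

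Pim1 (ENSMUSG00000024014, chromosome 17, 29490812 to 29496111, plus strand) encodes a kinase induced by cytokine receptors in T cells. It had 1163, 417 and 511 counts, against 8473, 7727 and 7405 for Gm26885 (29461896 to 29491925, minus strand). Gm26885 was 19.6-fold higher per base, or 4.29 ± 0.45 on the log2 scale (adjusted p = 5.72e-21). Gm26885 had the higher count in every library. Neither gene of these pairs opposed a further gene.

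The other pairs of high count had further partners. E430024P14Rik (chromosome 17, 7881106 to 7946426, minus strand) had 18469, 20983 and 18730 counts, against 9, 3 and 7 for Rsph3a, a gene of the radial spoke of cilia. The fitted ratio was 1376-fold. E430024P14Rik also opposes Tagap, a T cell activation gene, which had 3052, 1366 and 1312 counts. Gm26582 (chromosome 5, 92043064 to 92055960, plus strand) had 8071, 8671 and 7759 counts, against 4, 4 and 6 for the kinase gene Cdkl2, and its log2 ratio was 11.68 ± 0.64 (adjusted p = 1.27e-70). Gm26582 also opposes G3bp2, a stress granule gene with 689, 317 and 234 counts. In both pairs the noncoding gene was far above its head-to-head partner in all 3 libraries.

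Pairs with the coding gene far above the lncRNA were fewer. Atp5f1, a subunit of the mitochondrial ATP synthase, had 1423, 1197 and 995 counts, against 4, 5 and 4 for Gm42890, a log2 ratio of 7.71 ± 0.57 towards Atp5f1 (adjusted p = 1.39e-39). Atp5f1 also overlaps Wdr77, and both are described with the mitochondrial genes. Pdzd9 had 1524, 790 and 1357 counts, against 9, 20 and 11 for 4930588G17Rik, and also opposes Uqcrc2, a subunit of respiratory complex III with 353, 137 and 137 counts. Pigb, an enzyme of the membrane anchor glycosylphosphatidylinositol, had 1264, 1181 and 1199 counts, against 8, 3 and 7 for 2310009A05Rik, and the pair also meets Ccpg1 (67, 59 and 49 counts). On the noncoding side, A230103J11Rik had 1679, 1877 and 1398 counts against 9, 6 and 5 for Fbxw9, a subunit of ubiquitin ligases, and a further partner Tnpo2 of 333, 155 and 144 counts. Of the 12 named pairs of largest ratio, 11 had a further opposed gene, against 437 of all 963 tested head-to-head pairs.

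A few mixed pairs were near equality per base. Setd7, a lysine methyltransferase, had 337, 224 and 188 counts, and its partner 5031434O11Rik had 81, 100 and 73. Per base the log2 ratio was 0.01 ± 0.42 (adjusted p = 0.986), with the lncRNA the shorter of the pair. Zfas1, a host gene of small nucleolar RNAs, had 132, 29 and 55 counts, against 225, 153 and 138 for Znfx1, a log2 ratio of 0.02 ± 0.43 (adjusted p = 0.968). Gm26810 had 48, 160 and 35 counts against 236, 81 and 98 for Capns1, the small subunit of calpain, with 0.03 ± 0.47 (adjusted p = 0.955). Capns1 was above Gm26810 in raw counts in replicates 1 and 3 and below it in replicate 2, so the mean near 0 covers opposite directions. These pairs were chosen for ratios near 0, and a p that misses the threshold does not show that the partners were equal. The sign of all 3 ratios changed without the length correction or a single library.

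**Figure D3:**
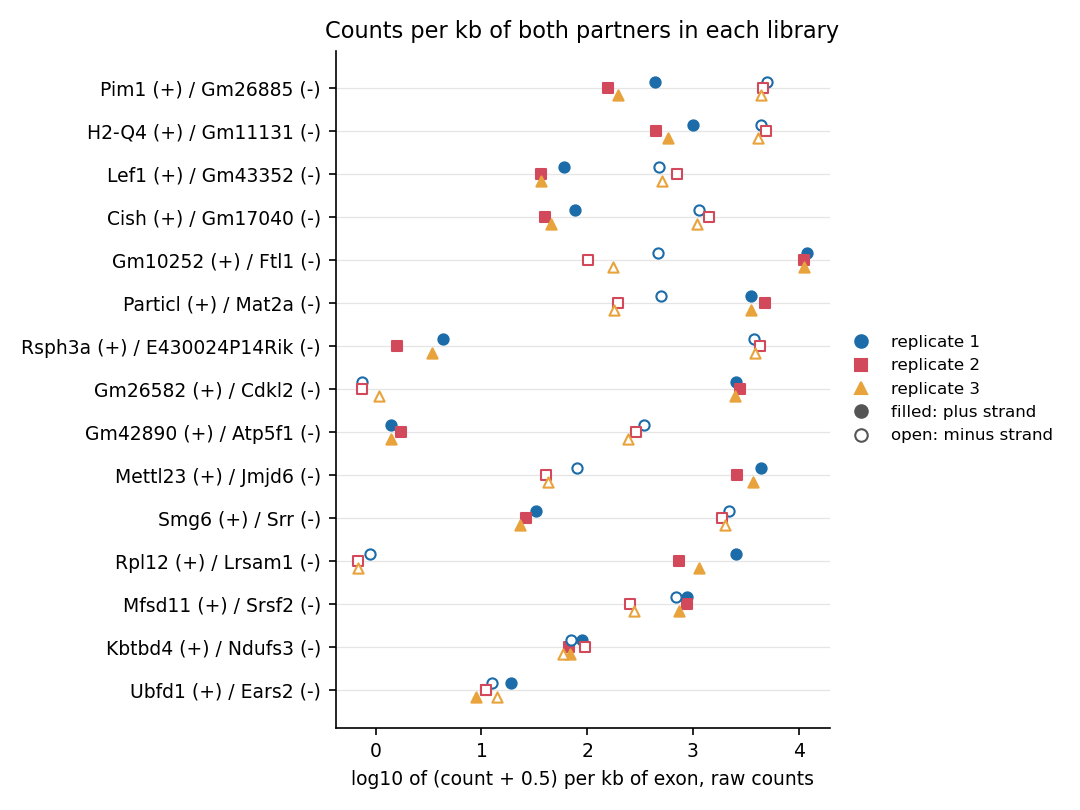
Counts per kb of exon (with 0.5 added to each count, log10 axis) of both partners of 15 named pairs, with filled points for the plus-strand gene, open points for the minus-strand gene and a colour and shape for each replicate. In the pair Pim1 and Gm26885 the open points lie above the filled ones in all 3 libraries, and in Kbtbd4 and Ndufs3 they lie together.

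Pairs of 2 coding genes differed by less. Of 390 tested, 299 were called (76.7%, against 76.5% of coding pairs in the whole table), with the plus-strand gene higher in 149 and the minus-strand gene in 150, and 91 were not called. The median absolute log2 ratio per library was 1.74, 2.38 and 2.18, a mean of 2.10 ± 0.33 (SD, n = 3). Partners lay within 2-fold in 99 pairs (25.4%) and beyond 16-fold in 79 (20.3%). Coding neighbours without overlap differed by more, and the head-to-head value minus theirs was −0.78 ± 0.37 on the log2 scale (n = 3, exact sign-flip p = 0.25), with the same sign in each library. Against tail-to-tail coding pairs the difference was 0.15 ± 0.23 (exact p = 0.5), and its sign was not the same in all libraries. Across coding pairs, Spearman's rho between the partners' counts per base was 0.383, 0.245 and 0.304 in replicates 1, 2 and 3 over 390 pairs, and that of mixed pairs was 0.262, 0.074 and 0.129 over 447. For tail-to-tail coding pairs rho was higher in every library, at 0.504, 0.434 and 0.417 over 678 pairs, and for coding neighbours without overlap it was 0.004, 0.003 and 0.004 over 659. These are descriptions across pairs within a library, whose points share depth and strand assignment.

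**Figure D4:**
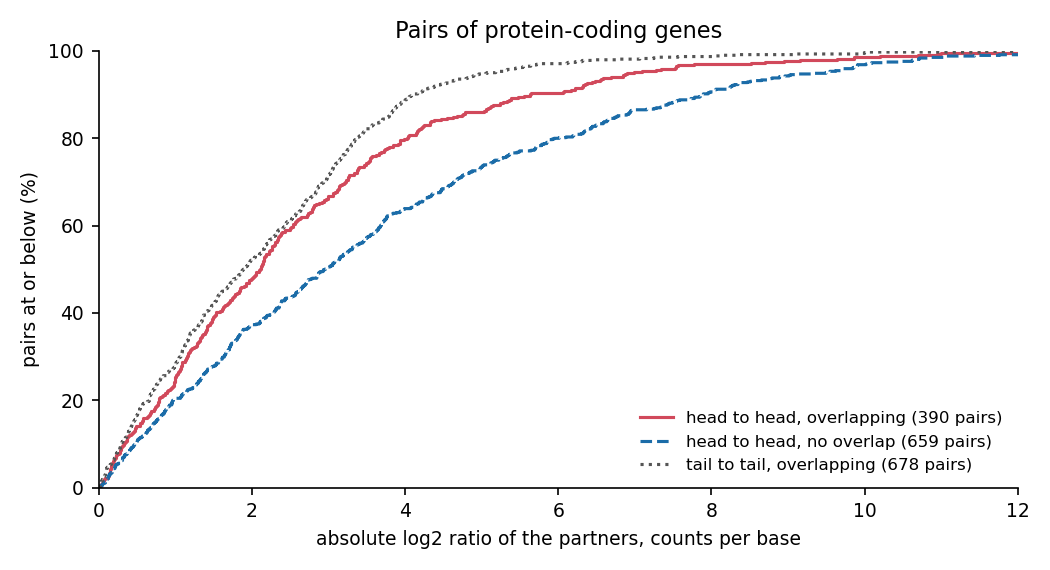
Cumulative share of tested coding pairs (vertical axis, %) by the absolute log2 ratio of their partners in counts per base, for 3 arrangements; the axis ends at 12. At the median the head-to-head overlapping pairs lie between the others, with a fitted value of 2.11, against 2.96 for neighbours without overlap and 1.89 for tail-to-tail pairs.

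The 4 coding pairs of highest count all had a further partner, against 184 of all 390 tested coding pairs. Mettl23, a methyltransferase gene (chromosome 11, 116843278 to 116854263, plus strand), had 12012, 7041 and 10025 counts, and Jmjd6, a hydroxylase of the Jumonji family (116837432 to 116843449, minus strand), had 380, 193 and 200. The log2 ratio was 6.07 ± 0.48 towards Mettl23 (adjusted p = 1.61e-34). Mettl23 also opposes the splicing factor gene Srsf2, which is itself the head-to-head partner of Mfsd11. Srsf2 had 2038, 746 and 819 counts and Mfsd11, a transporter gene, had 6205, 6249 and 5256, for a log2 ratio of 1.20 ± 0.40 towards Mfsd11 (adjusted p = 0.00375). That call was lost without replicate 2 (0.88) and without replicate 3 (1.08). Mettl23, Jmjd6, Mfsd11 and Srsf2 thus form a chain of overlaps within a small stretch of chromosome 11.

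Srr, the gene of serine racemase, had 10086, 8559 and 9124 counts, against 279, 222 and 194 for Smg6, an endonuclease of nonsense-mediated decay. Srr was higher by 74.7-fold per base (adjusted p = 9.79e-36), and the pair also meets Tsr1, a ribosome assembly gene with 1079, 602 and 504 counts, and the antisense gene Gm12333 with 130, 171 and 113. Cntd1, a gene of meiotic crossover formation, had 6494, 6319 and 5636 counts, against 32, 8 and 10 for Coa3, which acts in assembly of cytochrome oxidase. Cntd1 was higher by 83.1-fold per base (adjusted p = 9.97e-34), and it opposes Becn1, an autophagy gene with 687, 303 and 290 counts. In both pairs the same partner had the higher count in every library.

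The largest coding ratios went both ways. Rpl12, a ribosomal protein gene, had 9181, 2636 and 4140 counts, against 4, 3 and 3 for the ubiquitin ligase gene Lrsam1, a log2 ratio of 11.00 ± 0.64 (adjusted p = 2.07e-63). Srpr, of the signal recognition particle receptor, had 494, 238 and 224 counts against 6, 6 and 2 for Tirap, a Toll-like receptor adaptor. Pmel, a pigment cell gene, had 2264, 1157 and 2503 counts against 103, 42 and 34 for Cdk2, a cell cycle kinase, while the T cell kinase gene Dgka, also opposite the pair, had 1952, 701 and 878. Towards the minus strand, Serinc4 had 3482, 3334 and 3483 counts against 29, 14 and 13 for Hypk, a chaperone gene, with Serf2 (387, 134 and 217 counts) as the further gene. Psenen, a gamma-secretase subunit, had 402, 422 and 379 counts against 7, 3 and 3 for U2af1l4, and Tk1, thymidine kinase, had 412, 756 and 494 against 6, 2 and 4 for Afmid. These 6 pairs were chosen among called pairs with the same direction in every library, so their calls and constant order follow from the choice.

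Coding pairs close to equality were Ubfd1 and Ears2, Kbtbd4 and Ndufs3, and 4933434E20Rik and Ubap2l. Ubfd1 had 182, 106 and 85 counts and Ears2, the mitochondrial glutamyl-tRNA synthetase, had 65, 56 and 72, a log2 ratio per base of −0.02 ± 0.43 (adjusted p = 0.972). Kbtbd4 had 280, 211 and 216 counts and Ndufs3, a complex I subunit, had 153, 205 and 128, with 0.03 ± 0.41 (adjusted p = 0.948), and the pair also meets Ptpmt1 (1402, 1215 and 1216 counts). 4933434E20Rik had 314, 164 and 171 counts and Ubap2l 853, 440 and 441, with 0.04 ± 0.40 (adjusted p = 0.927), and its ratio was nearly the same in every library (0.01, 0.03 and 0.09). It also meets Gm19710, with 1941, 1947 and 1867 counts.

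Pairs of 2 lncRNA genes were seldom measurable. Of 50, 15 were tested and 13 called (86.7%, against 82.8% of all pairs tested). The plus-strand gene was higher in 4 of the called pairs and the minus-strand gene in 9. 9830144P21Rik had 2419, 3064 and 2584 counts while its partner A730036I17Rik had 0 in every library, so it was at least 1988-fold higher per base (3 counts over the group as the floor). It also opposes Slc20a1, a phosphate transporter gene with 591, 238 and 205 counts. 4930557K07Rik had 243, 378 and 281 counts against 2, 1 and 0 for Gm44597, a ratio of 3010 (95% counting interval 1027 to 14623). Gm9856 had 136, 131 and 111 counts while Gm49323 had 0 in every library, at least 29.7-fold per base. Gm44226 had 725, 772 and 756 counts against 55, 31 and 31 for 4833403J16Rik, of whose exon bases 62.9% lie in the overlap. In all 4 named pairs the higher gene was the minus-strand partner.

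Among pairs of other composition, Ftl1, the ferritin light chain, had 629, 136 and 234 counts, and the TEC gene Gm10252 opposite its start had 10019, 9291 and 9332. The log2 ratio was 5.82 ± 0.49 towards Gm10252 (adjusted p = 9.68e-32). Mat2a, which makes S-adenosylmethionine, had 2235, 885 and 802 counts, and Particl, a TEC model at its start, had 5508, 7455 and 5472, with 3.92 ± 0.44 (adjusted p = 5e-18). Ramp3, a receptor partner protein, had 588, 233 and 261 counts and the pseudogene Gm11978 1966, 3534 and 2084, with Gm11978 higher by 2.86 ± 0.43 on the log2 scale (adjusted p = 4.92e-11). An unnamed gene, ENSMUSG00000091095, had 1219, 2398 and 1919 counts, and the chromatin remodeller Chd3 had 3414, 2565 and 2194. Per base the unnamed gene, of 507 exon bases, was above Chd3 by 3.47 ± 0.43 on the log2 scale (adjusted p = 2.58e-15), although its raw counts were lower. Without length correction the ratio of the unnamed gene to Chd3 was −0.58, so its direction rests on that correction.

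T cell genes in head-to-head pairs were few. Of 107 listed T cell genes, 6 were members and all 6 pairs were tested. The partner was called higher in 5, the T cell gene in 0, and 1 pair was not called. Over genes of any biotype in the whole table, the partner was higher for 41.4%. All 6 T cell genes were coding genes with an antisense, TEC or pseudogene partner, so that share is not a like one. In head-to-head pairs the lncRNA was higher than a coding partner in 62.4%, the TEC gene in 69.7% and the pseudogene in 66.7%. The median log2 ratio of list gene over partner was −3.16. Lef1, a transcription factor of naive T cells, had 533, 324 and 319 counts against 1468, 2177 and 1566 for the antisense gene Gm43352, which was higher by 3.69 ± 0.43 (adjusted p = 6.22e-17). Cish, a feedback inhibitor of cytokine signalling, had 490, 254 and 291 counts against 1300, 1637 and 1267 for the pseudogene Gm17040, which was higher by 4.55 ± 0.45 (adjusted p = 3.34e-23). That pair also meets the antisense gene Gm17041 (4104, 3384 and 3666 counts). Satb1, a chromatin organiser of T cells, had 2925, 1374 and 1341 counts against 91, 187 and 126 for the TEC gene Gm6934, and per base they did not pass the test (log2 ratio of −0.42 ± 0.41 for Gm6934 over Satb1, adjusted p = 0.331). Jun and Zfp36 were named after their values were seen. Jun, an AP-1 factor, had 111, 41 and 48 counts against 309, 253 and 217 for Junos, and Zfp36, an mRNA decay factor, had 778, 420 and 361 against 437, 420 and 385 for Gm44710. In 5 of the 6 pairs, Pim1 among them, the T cell gene carried fewer counts per base than the gene opposite its start, by 1.71 ± 0.43 at Jun and 2.63 ± 0.42 at Zfp36 on the log2 scale. At Zfp36 that direction turned without the length correction, with Gm44710 over Zfp36 at −0.25. At Satb1 the sign turned without replicate 1, with a ratio of 0.18.

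Mitochondrial protein genes were more numerous. Of 212 listed, 35 were members, in 33 pairs. In 30 tested pairs with a single listed gene, the listed gene was called higher in 8 and the partner in 14, and 8 were not called, with a median log2 ratio of −0.38. In the whole table the partner was higher for 41.4%, a share over genes of any biotype and arrangement. The partners here were coding and noncoding genes in head-to-head pairs, so that share is not a like one. Atp5f1 was above Wdr77, an arginine methyltransferase cofactor with 203, 72 and 51 counts, by 3.94 ± 0.45 (adjusted p = 5.26e-18). Ndufs1, of complex I, had 214, 94 and 92 counts against 3503, 1087 and 1544 for Eef1b2, a translation elongation factor, with Eef1b2 higher by 5.55 ± 0.47 (adjusted p = 8.29e-31). Tomm6, of the outer membrane import pore, had 17, 9 and 11 counts against 1508, 1168 and 1332 for its antisense gene Tomm6os. Timm29, of the inner membrane import machinery, had 82, 30 and 21 counts against 1503, 1146 and 1342 for Yipf2, with Yipf2 higher by 5.65 ± 0.49. Mrpl18, a mitochondrial ribosomal protein, had 101, 34 and 45 counts against 1771, 871 and 991 for Tcp1, a chaperonin subunit. That pair also meets Acat3 (5012, 2951 and 5321 counts). Mrpl9 had 304, 158 and 133 against 1192, 1630 and 1165 for Oaz3.

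Cox4i1, of cytochrome oxidase, had 492, 127 and 190 counts against 1561, 1970 and 1225 for Emc8, and per base the pair did not pass the test (log2 ratio −0.73 ± 0.41, adjusted p = 0.0853). Without replicate 1 it passed, with a ratio of −1.29. Mrpl47 had 1841, 1354 and 1422 counts against 129, 33 and 54 for Ndufb5. Both are mitochondrial genes, and Mrpl47 was higher by 4.79 ± 0.46 (adjusted p = 3.6e-24). Hspd1 and Hspe1, the chaperonin pair known for a shared bidirectional promoter, were also both listed and were named after their values were seen. Hspd1 had 1128, 463 and 566 counts and Hspe1 318, 141 and 118, a log2 ratio of −1.09 ± 0.40 for Hspe1 over Hspd1 (adjusted p = 0.00882), with the same order in each library. The call was lost without replicate 2 (−1.20) and without replicate 3 (−0.93). Atp5j and Gabpa, another known pair, had 572, 524 and 567 and 860, 585 and 621 counts, and did not pass the test (0.57 ± 0.39 for Atp5j over Gabpa, adjusted p = 0.166). Without replicate 1 this pair passed, with −0.72 for Gabpa over Atp5j.

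Of 76 DNA repair and replication genes, 7 were members, all tested. The partner was called higher in 5 and the listed gene in 1. The median log2 ratio of the listed gene over its partner was −1.38. Over genes of any biotype and arrangement in the whole table, the partner was higher for 41.4%. The partners here were coding genes, except the antisense partner of Atr, so that share is not a like one. Lig1 and Mcm7 were named after their values were seen. Lig1, a DNA ligase, had 56, 41 and 37 counts against 20, 14 and 7 for Zswim9, with Lig1 higher by 3.23 ± 0.55 (adjusted p = 1.1e-08). Mcm7, of the replication helicase, had 146, 186 and 120 counts against 488, 303 and 446 for Ap4m1, which was higher by 1.17 ± 0.42 (adjusted p = 0.00635). That call was lost without replicate 3 (0.95).

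The division of counts between partners differed between libraries. A chi-square test of the partner by library counts, which measures counting noise only, called 534 of 705 pairs (75.7%, against 69.8% in the whole table) and 552 at an unadjusted p under 0.05. In mixed pairs it called 250 of 308. In 179 of those 250 replicate 1 was the library farthest from the others, and there the lncRNA share was lower in 175 and higher in 4. Replicate 2 was farthest in 51 and replicate 3 in 20. The median deviation of the log2 ratio from the pair's mean was −0.87 in replicate 1, 0.59 in replicate 2 and 0.24 in replicate 3. Of coding pairs 222 of 321 were called, with replicate 1 farthest in 149. Without replicate 1 the test called 167 pairs of all compositions. Replicate 1 also had the largest total count. Its part in the split was not tested.

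**Figure D5:**
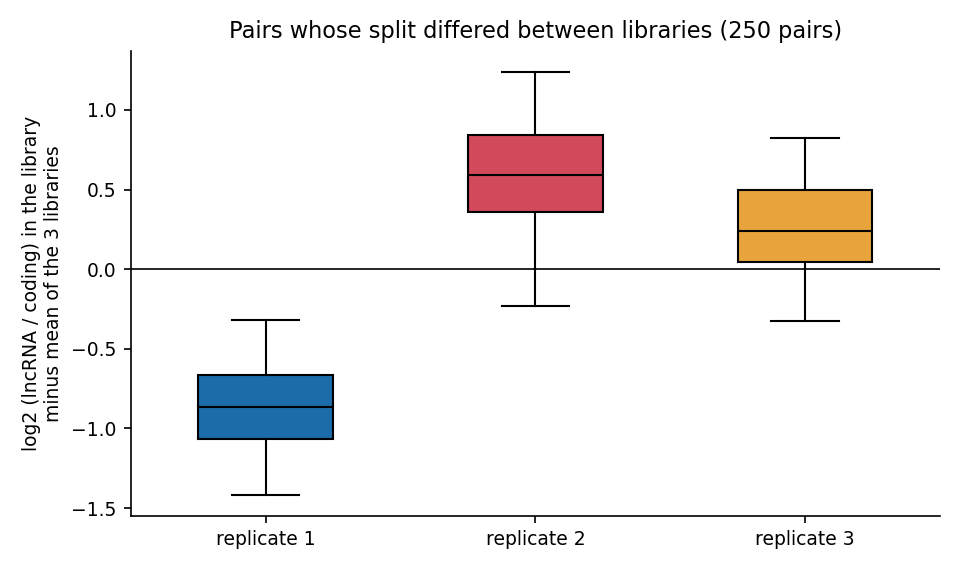
Deviation of the log2 ratio, lncRNA over coding partner, in each library from the mean of the 3 libraries, for the 250 mixed pairs whose division of counts differed between libraries. Boxes give quartiles with the median as a line, and whiskers the central 90% of pairs. The box of replicate 1 lies below 0, with a median of −0.87, and the boxes of replicates 2 and 3 lie above 0.

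Among the pairs of widest split were 3 of low count. Gm10634 had 73, 111 and 101 counts and Mthfsl 42, 4 and 9, so that the coding gene was prominent in replicate 1 alone. Zfp341, a zinc finger gene, had 25, 8 and 9 counts and 4930519P11Rik 5, 22 and 7. Gm37494 had 80, 37 and 20 counts and Gm44573 13, 47 and 36. Replicates 1 and 2 gave the most different ratios at Gm10634 and Zfp341, and replicates 1 and 3 at Gm37494. The order of the partners per base was the same in every library in these 3 pairs. The ratio of Zfp341 to 4930519P11Rik, −2.35 ± 0.70 (adjusted p = 0.00118), was −1.32 without replicate 2 and lost its call.

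Promoter windows of the members were richer in GC and CpG than all promoter windows. RefSeq windows were matched for 1801 of 2889 member symbols, and 862 pairs had a window with part of the overlap. GC content had a median of 62.0% in the 1238 windows that held part of the overlap, 59.7% in 2399 member windows and 52.7% in all 32851 windows. The CpG ratio had medians of 0.779, 0.694 and 0.384. The motif GGGCGG, bound by Sp1 family factors, was found on either strand in 60.1% of overlap windows and 35.7% of all, and CCGGAAG, of ETS family factors, in 23.3% and 8.86%. TATAAA was found in 5.49% and 13.6%, CCAAT in 34.9% and 37.4% and GCATGCG, of NRF1, in 4.77% and 3.58%. Of overlap windows, CCGGAAG was in 32.5% in coding pairs and 16.1% in mixed pairs. CpG-rich windows with GGGCGG and few TATAAA were thus more common among the members, and CCGGAAG was most common in coding pairs. The windows of 2 partners share bases and are not independent, and a match is a description, not a binding site.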

How the data were processed

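The measurements are unnormalized counts of read pairs for each gene in 3 Th1 libraries. Per the file headers, the authors counted pairs over exons of GENCODE vM13 models on mm10 with featureCounts 1.4.6-p4, in paired mode with both reads aligned and strand setting 1. The gene length that the deposited files give is the exon length used here. Gene identifiers were looked up in GENCODE vM21 for names and biotypes (50376 of 50600 genes, 99.56%).

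Pairs, members and lists were chosen with earlier results of these data known. Each pair entered edgeR 4.0.16 (R 4.3.3) as 6 columns, 3 libraries by 2 partners, with a term for library, offsets for exon length and TMM-scaled library size, and a summed count of at least 30. The quasi-likelihood test was adjusted by Benjamini-Hochberg over 4134 pairs, with a biological coefficient of variation of 0.3208. Ratios per library used a prior count of 0.5. On simulated counts for those 4134 pairs, the test recovered 18% of 2-fold and 81% of 4-fold differences, with 1 false call in 3934 unchanged pairs. The chi-square test needed expected counts of at least 5.

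Named pairs were the 4 of highest summed count in each of 4 classes, the 3 of largest ratio per direction in mixed and coding pairs (at least 10 counts per partner), the 3 nearest equality in each (at least 100 counts per partner), up to 12 pairs with listed genes, and the 4 whose split between libraries had the widest range. Alternatives were DESeq2 1.42.0, limma 3.58.1, unscaled totals, other count and overlap minimums, a prior count of 2, no length correction and leaving out each library. Motifs were searched with Python 3.11.15. The 24 chromosome X pairs were left out by the rule. A few results are not reported here.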

Additional observations from a re-analysis of the deposited data

How the results depend on the processing

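Calls in head-to-head pairs numbered 785 (279 with the lncRNA higher in mixed pairs, 299 in coding pairs) and ran from 642 to 787 (243 to 290, 227 to 304) when a library was left out. With DESeq2 they were 748 (273, 285), with limma 785 (281, 294) and with unscaled totals 785 (279, 299). Restricted to pairs with no further opposed gene, an alternative chosen after seeing the data, they were 416 (151, 154), where 526 of the 963 pairs could be tested. Leaving out a library moved the mixed median log2 ratio over 1.87 to 2.57, the coding absolute median over 1.94 to 2.28, the share with the more overlapped partner higher over 59.5% to 61.3%, the members' share of counts over 17.1% to 18.6% and the pairs with a differing split over 167 to 503. The mixed median was 0.58 without length correction. The more overlapped partner was higher in 62.7% of pairs with a summed count of at least 1, 45.0% without length correction and 63.0% with no further opposed gene. With overlaps of at least 100 bases the members held 14.7% of counts. Without length correction these log2 ratios, plus-strand over minus-strand gene, changed sign: ENSMUSG00000091095 over Chd3 −0.58, 5031434O11Rik over Setd7 −1.53, Zfas1 over Znfx1 −1.46, Gm26810 over Capns1 −0.95, Ubfd1 over Ears2 0.89, 4933434E20Rik over Ubap2l −1.41, Zfp341 over 4930519P11Rik 0.34, Gm37494 over Gm44573 0.40, Gm44710 over Zfp36 −0.25 and Gabpa over Atp5j 0.29. Leaving out a library in turn gave −0.18 to 0.27 for 5031434O11Rik over Setd7, −0.35 to 0.44 for Zfas1 over Znfx1, −0.92 to 0.83 for Gm26810 over Capns1, −0.32 to 0.30 for Ubfd1 over Ears2, −0.13 to 0.29 for Kbtbd4 over Ndufs3 and −0.88 to 0.18 for Gm6934 over Satb1. With limma Zfas1 over Znfx1 was −0.0054. The cause was not tested. No paired analysis was possible because there was 1 group, and the library was already a term of the fit.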
